A study of Mus musculus with 8 samples.

Results

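The neuregulins and the ErbB receptors are described here as 8 genes of the 38031 in the count table: the ligand genes *Nrg1*, *Nrg2*, *Nrg3* and *Nrg4* and the receptor genes *Egfr*, *Erbb2*, *Erbb3* and *Erbb4*. The members were listed by name and not by a cutoff on their values, though with earlier results of these data known. Each is represented by the counts of its annotated transcript with the lowest Ensembl number. Of the 8 members, 5 passed the filter of the study, more than 8 CPM (counts scaled to the library total) in at least 4 libraries, and were tested with 9959 genes in all. *Nrg4*, *Erbb2* and *Erbb3* lay under this filter, and their levels are given separately.

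Male Swiss Webster mice were injected in the primary motor cortex (M1) at P21 to P25 with lentivirus, and M1 was collected at P49 to P53 for total RNA-seq. In 4 libraries the virus carried *Fezf2 shRNA*, a short hairpin RNA against the transcription factor gene *Fezf2*, and in the 4 control libraries it carried *non-silencing shRNA*. All 8 samples therefore hold lentivirus and the mCherry reporter, which a Synapsin promoter, active in neurons, drove together with the hairpin. The dissected tissue held all layers and the meninges, so that untransduced neurons, glia, vessels and meninges are in each sample beside the transduced neurons, and the labels name no animal for a library, so that p values measure the spread between these 8 samples. The libraries had 54684016 to 58003814 counts on genes, and normalized counts are counts scaled to the mean effective size of the 8 libraries.

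*Fezf2*, the targeted gene, had 688, 767, 735 and 702 normalized counts in control libraries 1 to 4, and 621, 583, 568 and 592 in *Fezf2 shRNA* libraries 1 to 4. Every *Fezf2 shRNA* library lay below every control (exact permutation test, two-sided, p = 0.0286, the smallest p that 4 against 4 libraries allow). The log2 fold change was -0.29 (standard error (SE) 0.0781), with an adjusted p of 0.0824 from edgeR's quasi-likelihood test, so *Fezf2* did not pass the threshold used throughout, an adjusted p of 0.05 or less together with a log2 fold change of 0.2 or more in either direction. With DESeq2 it passed, at -0.28 and an adjusted p of 0.0256, and with an offset for the length of the counted interval it was -0.18 (adjusted p = 0.446 from edgeR). The hairpin sequence is shown because short stretches of it also occur in transcripts of the members, with the stretch found in the *Erbb3* transcript in capitals, from nt 3 to 13 of 19 nt.
*Fezf2 shRNA*, sense strand: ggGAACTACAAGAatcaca
The longest stretch shared with a transcript was 11 nt in *Erbb3* and 10 nt in *Nrg1*, 9 nt in *Egfr* and *Erbb4*, 8 nt in *Erbb2* and *Nrg3* and 7 nt in *Nrg2* and *Nrg4*, on either strand of the hairpin, against all 19 nt in *Fezf2*. Of 55341 genes searched, 1.06% had a stretch of 11 nt or more, 4.82% of 10 nt or more and 72.4% of 7 nt or more.

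Neuregulins are growth factors made mostly as membrane-bound precursors, which proteases release or process, and they bind ErbB receptor tyrosine kinases through an EGF-like domain held together by cysteines. ErbB4 and ErbB3 bind neuregulins, ErbB2 has no known ligand of its own and serves as a partner in dimers, and EGFR binds EGF and its relatives. In the cortex ErbB4 is known from parvalbumin interneurons and their excitatory synapses, ErbB3 from cells of the oligodendrocyte lineage, and neuregulin 3 from excitatory neurons.

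The coding sequence of the EGF-like domain is shown for *Nrg1*, *Nrg3* and *Nrg4*, and not for *Nrg2*, because it is the part that touches the receptor, and because its place in the genes shows how little of a counted interval is coding. The 6 cysteine codons are in capitals. All sequences are read from GENCODE release M21 transcripts (GRCm38), 5′ to 3′ on the minus strand of the genome.
*Nrg1*, 120 nt in exons 2 and 3 of 9, chr8:31837698-31849398: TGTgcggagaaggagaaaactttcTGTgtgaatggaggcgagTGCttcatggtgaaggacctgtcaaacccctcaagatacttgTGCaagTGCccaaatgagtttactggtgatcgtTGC
*Nrg3*, 117 nt in exons 2 and 3 of 10, chr14:38668261-39012054: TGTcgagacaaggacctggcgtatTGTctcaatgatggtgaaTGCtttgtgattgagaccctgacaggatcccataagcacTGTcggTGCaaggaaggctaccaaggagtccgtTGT
*Nrg4*, 111 nt in exons 3 and 4 of 8, chr9:55242177-55280969: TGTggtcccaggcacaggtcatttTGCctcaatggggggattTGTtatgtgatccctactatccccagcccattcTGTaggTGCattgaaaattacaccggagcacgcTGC
In *Nrg3* these 117 nt are spread over 343794 bases of genome, in *Nrg4* 111 nt over 38793 bases and in *Nrg1* 120 nt over 11701 bases, the rest being intron. Reads in introns count as much as those in exons here, since each transcript was counted from its first to its last base. The counted interval of *Nrg3* was 0.617% exonic, that of *Nrg2* 0.809%, *Erbb4* 1.12%, *Nrg1* 2.44%, *Nrg4* 5.12%, *Egfr* 6.82%, *Erbb2* 20.6% and *Erbb3* 27.2%.

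The levels of the 8 genes were ordered by normalized counts per kb of interval, in the controls (mean ± SD, n = 4), which sets introns and exons together and is no level of mRNA. *Nrg3* was highest at 45.8 ± 4.02 per kb, and its 8 libraries (41.3 to 67.8) lay above those of every other member. *Erbb3* followed at 21.6 ± 7.57, with a range of 10.9 to 32.7 over the 8 libraries. *Erbb4* (8.93 ± 0.495), *Egfr* (8.20 ± 0.436), *Nrg1* (8.17 ± 1.05) and *Nrg2* (7.46 ± 0.871) did not differ from their neighbours in this order beyond the spread of the libraries, and the lowest *Erbb3* library overlapped *Erbb4*. *Erbb2* (2.14 ± 0.417) and *Nrg4* (0.447 ± 0.327) were lowest, and their ranges of 1.6 to 2.51 and 0.144 to 0.825 per kb did not overlap. The place of *Nrg4* depends on the interval, since another of its annotated intervals (ENSMUST00000135531, 59.341 kb) had 2.45 per kb in the controls.

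**Figure D1:**
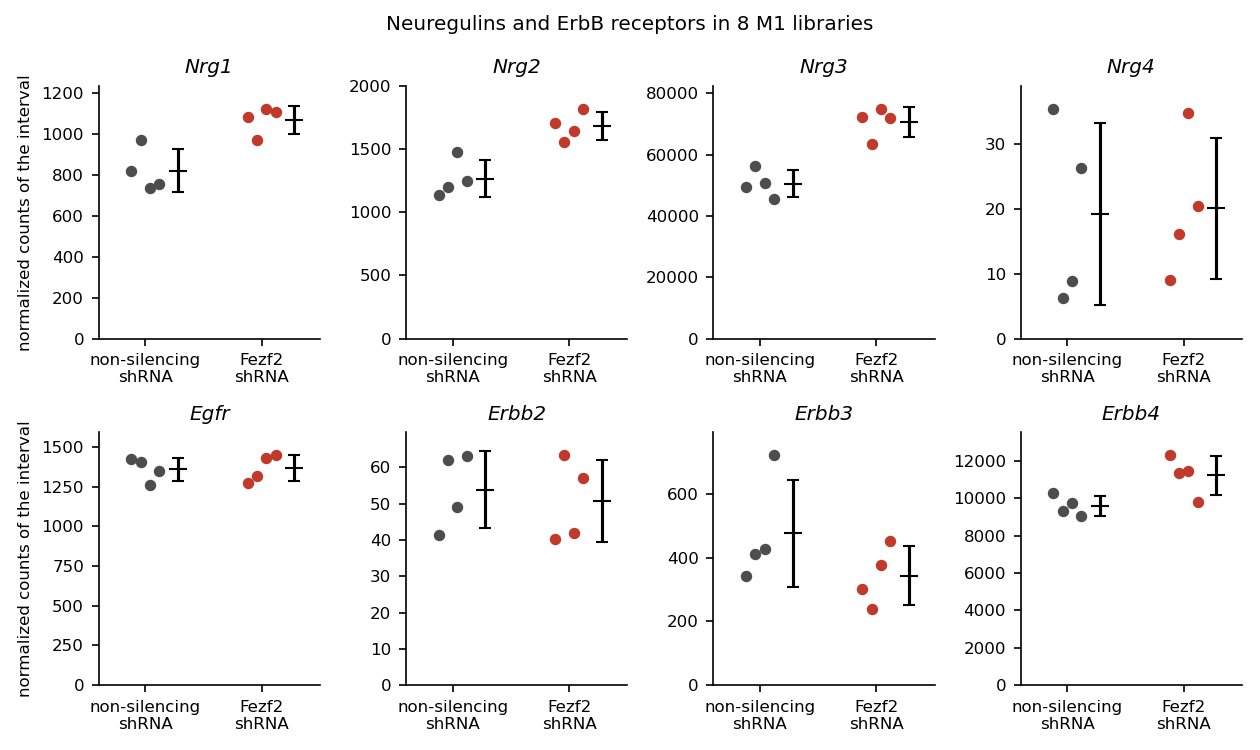
Normalized counts (vertical axes, linear from 0) of the 8 members in the 4 *non-silencing shRNA* libraries (grey) and the 4 *Fezf2 shRNA* libraries (red), with the mean and SD as bars (n = 4 each). The 2 groups are apart in *Nrg1*, *Nrg2* and *Nrg3* and overlap in the other 5 genes.

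Among the ligands, *Nrg2* and *Nrg3* were higher in *Fezf2 shRNA*-treated M1 and passed the threshold, *Nrg1* was higher in each library but did not pass it, and *Nrg4* was too low to test. The 2 members past the threshold were of 5 tested, beside 2.09% of all 9959 genes tested, and both rose, as 1.96% of all genes did, while 0.131% fell. In 3 of the 5 members tested the groups did not overlap, each with *Fezf2 shRNA* above, beside 11.8% of all genes (7.41% above and 4.41% below). With DESeq2, 3 members passed and all 3 rose, beside 7.55% of all genes (6.61% upward and 0.944% downward). The median log2 fold change was 0.38 over the 5 members and -0.03 over all genes.

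*Nrg3*, which encodes a neuregulin made largely in the nervous system, lies on the minus strand of chromosome 14 (mm10, 38368952 to 39473088), and its counted transcript (ENSMUST00000166968, 10 exons, 1104 kb) spans the whole annotated gene. It had 49563, 56351, 50578 and 45614 normalized counts in the 4 controls. In the *Fezf2 shRNA* libraries it had 72121, 63584, 74886 and 71937. All 4 *Fezf2 shRNA* libraries lay above all controls, the nearest being *Fezf2 shRNA* library 2 and control 2. The means were 70632 ± 4888 and 50527 ± 4434 (SD, n = 4 each), which gave a log2 fold change of 0.48 (SE 0.0853, adjusted p = 0.0276 from edgeR; by exact permutation, p = 0.0286). The call was lost without control replicate 1 (adjusted p = 0.0998 from edgeR), control replicate 4 (0.0769) or *Fezf2 shRNA* replicate 1 (0.0812), 3 (0.0738) or 4 (0.0669), while the log2 fold change stayed between 0.44 and 0.54.

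Antisense transcripts lie inside *Nrg3*, and no strand setting is given for the counting, so their reads and those of *Nrg3* cannot be told apart. *Nrg3os*, an annotated antisense gene of 60493 bases, held 8.10% of the *Nrg3* counts and had 4265, 4939, 4046 and 3714 normalized counts in the controls against 5883, 5709, 5391 and 5289 with *Fezf2 shRNA*. Its log2 fold change was 0.39 (SE 0.0825, adjusted p = 0.0387 from edgeR with the widest transcript of each gene). *Gm20642*, the second antisense gene, held 3.37% of the counts and had a log2 fold change of 0.51 (SE 0.104, adjusted p = 0.0354 in the same fit). Without the reads of these antisense genes and of *Gm20641*, the remaining 88.3% of the counts still separated the groups, with 62509.5 ± 4877 normalized counts against 44504 ± 3669 (SD, n = 4 each; exact permutation test, p = 0.0286).

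*Nrg2*, which encodes a neuregulin close to *Nrg1*, lies on the minus strand of chromosome 18 (36027396 to 36197232 for ENSMUST00000115705, a processed transcript of 8 exons over 169.8 kb). It had 1142, 1198, 1479 and 1251 normalized counts in the controls and 1709.5, 1562, 1649 and 1821 with *Fezf2 shRNA*. The groups did not overlap, with control 3 nearest to the *Fezf2 shRNA* libraries. The means were 1685 ± 109 and 1268 ± 148 (SD, n = 4 each), which gave a log2 fold change of 0.41 (SE 0.0877, adjusted p = 0.0404 from edgeR; by exact permutation, p = 0.0286). Leaving out *Fezf2 shRNA* replicate 2 or control replicate 3 kept the call, and leaving out any other library ended it (adjusted p of 0.0565 to 0.126 from edgeR), with log2 fold changes of 0.36 to 0.50 over the 8 fits. With the widest transcript of *Nrg2*, which reaches 9.89 kb further, nearly all at the 3′ side, the log2 fold change was 0.34 (adjusted p = 0.0569 from edgeR).

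*Nrg1*, the neuregulin known for roles in myelination and in synapses of interneurons, was counted over 1 of its 18 annotated transcripts (ENSMUST00000073884, chromosome 8, 31817756 to 31918280, minus strand, 9 exons). This interval of 100.525 kb covers the downstream part of a gene of 1069 kb, and the rest of the gene was not analysed here. The normalized counts were 820.3, 970.3, 739 and 757 in the controls and 1082, 971, 1124 and 1108 with *Fezf2 shRNA*. The groups were apart by less than 1 normalized count, between control 2 and *Fezf2 shRNA* library 2, and the other 3 libraries of each group were further apart. The means were 1071 ± 69.1 and 821 ± 105 (SD, n = 4 each), and the log2 fold change of 0.38 (SE 0.0983) did not pass the threshold (adjusted p = 0.0725 from edgeR; by exact permutation, p = 0.0286). It passed without control replicate 2 (0.47, adjusted p = 0.0242) and with DESeq2 on all libraries (0.39, adjusted p = 0.00850). Among all annotated intervals of the file the same counts had an adjusted p of 0.0472 from edgeR, where 5.22% of the 32204 intervals tested passed.

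*Nrg4*, a neuregulin known mainly from fat and liver, had 35.4, 6.19, 8.85 and 26.3 normalized counts in the controls and 9.08, 16.1, 34.8 and 20.4 with *Fezf2 shRNA*, for a transcript with a retained intron on chromosome 9 (55240700 to 55283602). The groups overlapped over nearly their whole range (exact permutation test, p = 0.914), and a difference was not detectable at this depth. Its widest interval (ENSMUST00000130158, 105.449 kb) had 810.2 ± 105 normalized counts in the controls and 749.6 ± 48.0 with *Fezf2 shRNA* (SD, n = 4 each), which gave a log2 fold change of -0.11 (SE 0.103, adjusted p = 0.559 from edgeR). Of these reads, 77.5% lay in 2934 bases at the 3′ end (55221298 to 55224231) that overlap *Fbxo22*, a gene of the opposite strand, so the wider value cannot be told apart from *Fbxo22*. An interval that starts past that stretch, at 55224232 (ENSMUST00000135531, 59.341 kb), had 145 ± 47.2 normalized counts in the controls. With *Fezf2 shRNA* it had 126 ± 11.8 (SD, n = 4 each, exact permutation test, p = 0.571). *Fbxo22* ends at 55224433, so a short overlap remains.

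Among the receptors none passed the threshold. *Erbb4* was higher with *Fezf2 shRNA* in means with overlapping groups, *Egfr* had near equal means, and *Erbb2* and *Erbb3* lay under the filter. At an unadjusted p under 0.05, 1 of the 2 receptors tested with edgeR was higher, beside 11.8% of all genes higher and 7.73% lower (19.6% in all). DESeq2, run here on 1 transcript per gene, called neither (*Erbb4* adjusted p = 0.0592). The study's own DESeq2 analysis of these libraries has *Erbb4* among its changed genes, listed under calcium signaling.

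*Erbb4*, the receptor of neuregulins on cortical interneurons, lies on the minus strand of chromosome 1 (68032186 to 69107756 for ENSMUST00000119142, 28 exons over 1076 kb). It had 10264, 9336, 9772 and 9043 normalized counts in the controls and 12299.7, 11384, 11455 and 9780.0 with *Fezf2 shRNA*. *Fezf2 shRNA* library 4 lay between the controls, and the other 3 lay above them. The means were 11229.9 ± 1052 and 9604 ± 532 (SD, n = 4 each), which gave a log2 fold change of 0.23 (SE 0.0778, adjusted p = 0.152 from edgeR; by exact permutation, p = 0.0571). The summed level of 7 interneuron markers, *Gad1*, *Gad2*, *Slc32a1*, *Pvalb*, *Sst*, *Vip* and *Lhx6*, ranged from 16678 to 19453 normalized counts in the controls and from 15951 to 17536 with *Fezf2 shRNA*, and none of the 7 passed the test, with 2 lower and 0 higher at an unadjusted p under 0.05. *Gm16076*, annotated inside an intron of *Erbb4* on the same strand, held 4.32% of the counts of the gene.

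*Egfr*, the receptor of EGF, lies on the plus strand of chromosome 11 (16752211 to 16918158 for ENSMUST00000020329, 28 exons over 165.948 kb). It had 1424, 1405, 1263 and 1348 normalized counts in the controls and 1274, 1319.5, 1428 and 1446 with *Fezf2 shRNA*. The groups overlapped throughout, with means of 1360.0 ± 72.4 and 1367 ± 83.7 (SD, n = 4 each; exact permutation test, p = 0.857). The log2 fold change was 0.0074 with an SE of 0.0687 (adjusted p = 0.967 from edgeR), and it changed sign with the normalization to library totals (-0.019). *Egfros*, an antisense gene inside it, held 2.22% of its counts.

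*Erbb2*, the receptor without a ligand of its own, lies on the plus strand of chromosome 11 (98412470 to 98437716) and had 41.3, 61.9, 49.2 and 63.2 normalized counts in the controls and 40.4, 63.3, 41.8 and 57.2 with *Fezf2 shRNA*. With a filter of more than 1 CPM its log2 fold change was -0.09 (SE 0.232, adjusted p = 0.882 from edgeR), an error too wide to tell a change of the size seen in *Nrg2* or *Nrg3*. It was 0.0057 without *Fezf2 shRNA* replicate 1. The *Gm25048* annotation inside it held 1.67% of its counts.

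*Erbb3*, the receptor known from the oligodendrocyte lineage, lies on the minus strand of chromosome 10 (128567523 to 128589652, 28 exons over 22.1 kb). It had 344, 414, 429 and 723 normalized counts in the controls and 302, 240.2, 378 and 455 with *Fezf2 shRNA*. Control 4 lay above the other 7 libraries, and the groups overlapped. The means were 477 ± 168 in the controls and 344 ± 93.0 with *Fezf2 shRNA* (SD, n = 4 each; exact permutation test, p = 0.20). With a filter of more than 1 CPM the log2 fold change was -0.47 (SE 0.239, adjusted p = 0.354 from edgeR), and without control replicate 4 it was -0.21 in the same fit. The *Mir6917* annotation, inside *Erbb3* on the same strand, held 3.22% of its counts.

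The oligodendrocyte markers moved with *Erbb3* from library to library. The summed level of 6 markers, *Mbp*, *Mog*, *Mag*, *Mobp*, *Cnp* and *Cldn11*, was 35712, 53670.2, 45757 and 68671 normalized counts in the controls and 30342, 29979.7, 48337 and 48729 with *Fezf2 shRNA*. The sums of the groups overlapped (exact permutation test, p = 0.20). Most of each sum was *Mbp*, as with 23657 of 35712 in control 1. Its log2 fold change was -0.31, and those of the other markers were -0.43 to -0.65. Control 4 was highest and *Fezf2 shRNA* library 2 lowest for the markers and for *Erbb3*. All 6 markers had log2 fold changes below 0 (median -0.54), 4 of them at an unadjusted p under 0.05, and none passed the test with edgeR, while DESeq2 called *Mog* (adjusted p = 0.0263) and *Cnp* (adjusted p = 0.0318). Per 1000 normalized counts of the summed markers, *Erbb3* had 9.31 ± 1.17 in the controls and 8.78 ± 1.03 with *Fezf2 shRNA* (SD, n = 4 each; exact permutation test, p = 0.543). As *Mbp* was most of the sum, this is mainly a ratio to *Mbp*. In bulk tissue, fewer cells of a type and less RNA per cell cannot be told apart, and the part of the oligodendrocyte level in the *Erbb3* difference was not tested further.

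**Figure D2:**
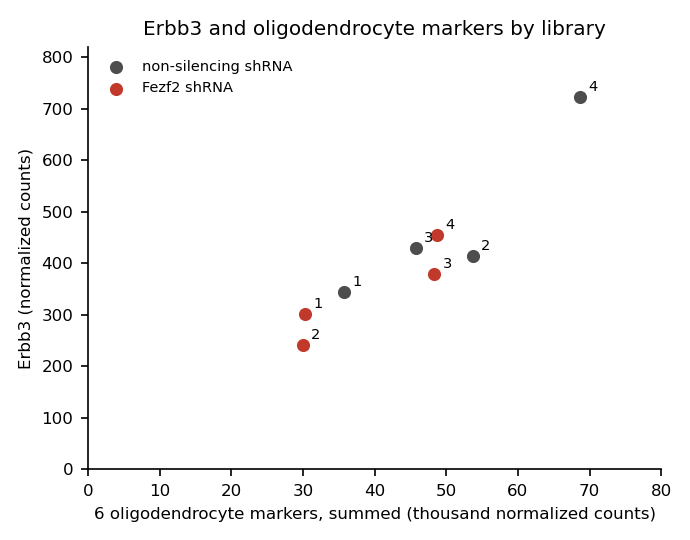
Normalized counts of *Erbb3* (vertical axis) against the summed normalized counts of 6 oligodendrocyte markers in units of 1000 (horizontal axis) in each library, numbered by replicate, with *non-silencing shRNA* in grey and *Fezf2 shRNA* in red. Control 4 is the highest point on each axis (723 against 68671 summed counts) and *Fezf2 shRNA* library 2 the lowest (240.2 against 29979.7).

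Of 44 markers of all cell types listed and 34 tested, edgeR called 0, beside 2.09% of all genes. At an unadjusted p under 0.05 with edgeR 9 of the 34 differed, all lower, beside 7.73% of all genes lower and 11.8% higher. These were 4 oligodendrocyte, 2 precursor, 2 interneuron and 1 excitatory neuron markers. DESeq2 called 3, beside 7.55% of all genes: *Mog*, *Cnp* and *Olig1* (adjusted p = 0.00598), which was listed here with the precursor markers. The oligodendrocyte precursor markers summed to 5246 to 6527 normalized counts in the controls and 4753 to 5518 with *Fezf2 shRNA* (exact permutation test, p = 0.0571). All 4 precursor markers tested had log2 fold changes below 0 (median -0.20), with *Olig1* at -0.34 (adjusted p = 0.0527 from edgeR) and *Gpr17* at -0.31 (adjusted p = 0.15 from edgeR). *Pdgfra* and *Cspg4* were near 0, at -0.06 and -0.08 (adjusted p of 0.685 and 0.725 from edgeR). The part of the precursor markers in the *Erbb3* difference was not tested. The excitatory neuron markers, all detected in each library of the labelled cortex, summed to 68430.0 to 78795 in the controls and 71493 to 78966 with *Fezf2 shRNA*. Astrocyte markers (47447 to 53166 against 48297 to 51502), microglia markers (7089 to 9377 against 6801 to 9529), endothelial markers (2142 to 2867 against 2001 to 2354) and markers of meninges and fibroblasts (404 to 1267 against 296 to 1596) overlapped between controls and *Fezf2 shRNA*, and their part in the neuregulin differences was not tested.

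The members with the longest intervals were set beside other genes of their length, since the counts of long genes differed between the groups as a whole. Among 116 other genes of 0.5 to 2 times the interval of *Nrg3*, the median log2 fold change was 0.34, 98.3% were above 0 and 32.8% passed the threshold. Against 0.34 for genes of its length, *Nrg3* had 0.48 and *Erbb4* 0.23. For the length of *Nrg2* the median was 0.13 over 1724 genes (*Nrg2* 0.41), for *Egfr* 0.13 over 1764 genes (*Egfr* 0.01), and for *Nrg1* 0.07 over 2600 genes (*Nrg1* 0.38). The length used for *Nrg1* was its counted interval of 100.525 kb, while its annotated gene spans 1069 kb, near the length of *Nrg3*. For genes of the length of *Nrg3* the median was 0.34, as given above. By library, relative to the control mean, 405 other genes over 300 kb had a median log2 level of 0.37, 0.19, 0.30 and 0.28 in *Fezf2 shRNA* libraries 1 to 4, and *Nrg3* had 0.52, 0.34, 0.57 and 0.51. *Erbb4* had 0.36, 0.25, 0.26 and 0.03, below the median of these long genes in *Fezf2 shRNA* libraries 1, 3 and 4 and above it in library 2.

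When this relation to interval length was removed from each library with a loess offset, no member passed the threshold. The log2 fold changes were then 0.29 for *Nrg1* (SE 0.0869), 0.25 for *Nrg2* (SE 0.0856), 0.10 for *Nrg3* (SE 0.0643), -0.16 for *Erbb4* (SE 0.0793) and -0.15 for *Egfr* (SE 0.0677), with adjusted p of 0.283, 0.337, 0.632, 0.537 and 0.449 from edgeR. *Nrg1*, *Nrg2* and *Egfr* had an unadjusted p under 0.05 in that fit, beside 1079 of all 9959 genes. It called 2 genes of all 9959, none of them a member. *Erbb4* and *Egfr* changed direction, and *Nrg3* moved from the largest of the 5 values to the third. The offset took *Nrg1* at its counted interval of 100.525 kb and not at the length of its gene, 1069 kb.

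**Figure D3:**
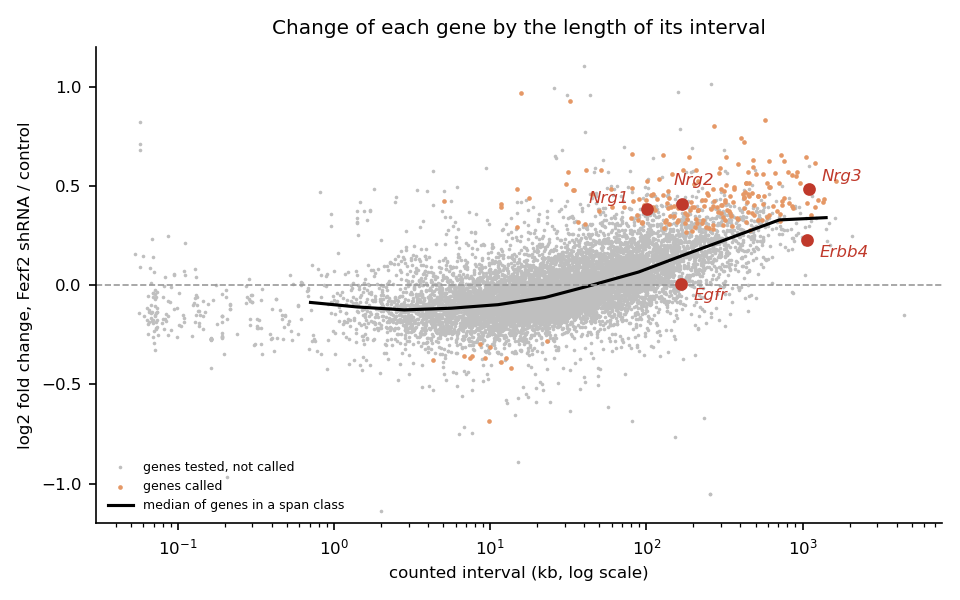
Log2 fold change (vertical axis, *Fezf2 shRNA* over control) of each gene tested against the length of its counted interval in kb (horizontal axis, log scale), with genes past the threshold in orange, the median of each length class as a line and the 5 members tested in red. 13 genes lie outside the plotted range. *Nrg1*, *Nrg2* and *Nrg3* lie above the line, *Erbb4* (0.23) and *Egfr* (0.01) below it.

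**Figure D4:**
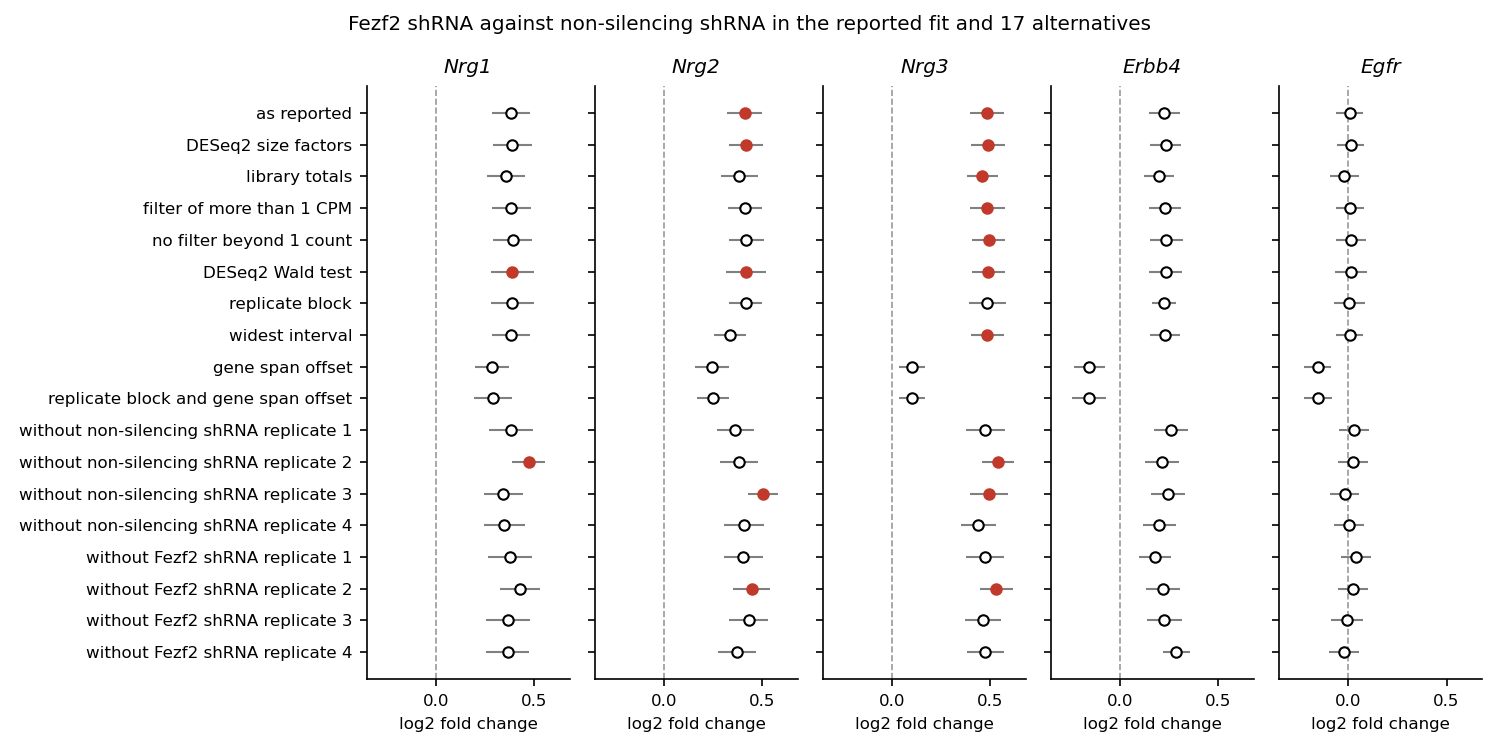
Log2 fold change with its SE (horizontal axes) of the 5 members tested in the reported fit and in 17 alternatives (vertical axis), with filled points where the threshold was passed. *Nrg3* stays between 0.44 and 0.54 when a library is left out and falls to 0.10 with the gene span offset, while *Erbb4* falls to -0.16.

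The annotated intervals of a gene differ in how much of them is exonic, so the place of the difference inside each gene could be read from them. Intervals of 1 gene share reads and are not independent. Of all intervals of the members, 8 passed the threshold, all upward: 4 of *Nrg3*, 3 of *Nrg2* and 1 of *Nrg1*, where 4.95% of all 32204 intervals tested passed upward and 0.267% downward. Intervals of *Nrg4*, *Erbb4* and *Egfr* were tested too, and none of them passed. One of the 3 of *Nrg2* has the same counts as its widest interval although the annotation used here places it on 10.872 kb, so its place is not known. To separate the reads, counts of a nested interval were subtracted from those of the widest interval, which left stretches of different exonic share. Of 29923 such stretches tested in all genes, 2.67% passed the threshold, 2.55% upward and 0.127% downward. Of the stretches of the members, tested in *Nrg2*, *Nrg3*, *Nrg4*, *Erbb4* and *Egfr*, 1 passed, in *Nrg3*. That stretch was 0.501% exonic, and of the 724 stretches of other genes under 1% exonic 26.9% passed upward and 0 downward. Among other genes, stretches under 1% exonic had a median log2 fold change of 0.33 (724 stretches). The median was 0.18 from 1% to under 5% exonic (4080 stretches) and 0.0031 from 5% to under 20% (11157 stretches). It was -0.09 from 20% to under 80% (10801 stretches) and -0.10 for those of at least 80% exonic (3144 stretches).

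In *Nrg3* the downstream and the upstream stretch, each mostly intronic, had like log2 fold changes, and the exonic ends had a lower one. The downstream 640.657 kb (0.501% exonic) had 22946, 24661, 21981 and 19898 normalized counts in the controls and 32779.7, 28276, 33565 and 29909 with *Fezf2 shRNA*, a log2 fold change of 0.48 (SE 0.0841, adjusted p = 0.0183 from edgeR). The upstream 463.480 kb, which begins at the first exon, had a log2 fold change of 0.49 (SE 0.0854, adjusted p = 0.0161 from edgeR over the intervals). Within a library the log2 ratio of the downstream to the upstream stretch differed by -0.01 between the groups (SE 0.0639; exact permutation test, p = 0.886). The wholly exonic ends of the gene, 1.788 kb in all, had 558, 541, 391 and 460.0 normalized counts in the controls and 549, 513, 592 and 577 with *Fezf2 shRNA*, a log2 fold change of 0.19 (SE 0.12, adjusted p = 0.415 from edgeR) with overlapping groups. The log2 ratio of these ends to the rest of the gene was lower with *Fezf2 shRNA* by 0.28 in the means (-6.97 against -6.69), a difference within the spread of the controls (exact permutation test, p = 0.114).

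In *Nrg2* the more exonic stretch went the other way. The 9.892 kb at the ends of the gene outside the counted interval, 17.8% exonic, had 217, 163, 155 and 182 normalized counts in the controls and 135, 127, 141 and 161 with *Fezf2 shRNA*. *Fezf2 shRNA* library 4 overlapped the controls, and the log2 fold change was -0.35 (SE 0.162, adjusted p = 0.291 from edgeR). The log2 ratio of this stretch to the rest of *Nrg2* was -2.39, -2.88, -3.25 and -2.78 in the controls and -3.66, -3.62, -3.54 and -3.50 with *Fezf2 shRNA*. The groups did not overlap, and the difference was -0.76 (SE 0.180; exact permutation test, p = 0.0286, and 0.0714 after Benjamini-Hochberg adjustment over the 5 ratios examined).

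In *Erbb4* the upstream and the 3′ part were set side by side. The upstream 857.102 kb, 0.291% exonic, had 6483, 5325, 6429 and 5738 normalized counts in the controls and 8811, 8054, 7555 and 6532 with *Fezf2 shRNA*. The groups did not overlap here, and the log2 fold change of 0.37 (SE 0.0967) lay just outside the threshold (adjusted p = 0.0513 from edgeR over the intervals). The remaining 218.772 kb, nearly all at the 3′ side and 4.51% exonic, had 3861, 4102, 3428 and 3368 normalized counts in the controls and 3585, 3446, 3989.9 and 3371 with *Fezf2 shRNA*, a log2 fold change of -0.04 (SE 0.0801, adjusted p = 0.848 from edgeR). The log2 ratio of the 3′ to the upstream part was -0.75, -0.38, -0.91 and -0.77 in the controls and -1.30, -1.22, -0.92 and -0.95 with *Fezf2 shRNA*, with no overlap and a difference of -0.40 (SE 0.148; exact permutation test, p = 0.0286, adjusted 0.0714).

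*Egfr*, whose totals had near equal means, had stretches of opposite sign. The upstream 135.721 kb (2.32% exonic) had 654, 626, 613 and 689.6 normalized counts in the controls and 652, 714, 811 and 717 with *Fezf2 shRNA*, and the 30.235 kb at the 3′ side (27.0% exonic) had 770.2, 779, 650.1 and 658 in the controls and 622, 606, 617 and 729. The log2 fold changes were 0.16 (SE 0.0905, adjusted p = 0.315 from edgeR) and -0.15 (SE 0.100, adjusted p = 0.451), and the groups overlapped in each stretch. The log2 ratio of the 3′ to the upstream part was lower with *Fezf2 shRNA* by 0.31 in the means (-0.17 against 0.14; exact permutation test, p = 0.0571, adjusted 0.0952). None of the 5 ratios passed after adjustment. With 4 against 4 libraries the exact permutation test gives no p under 0.0286, the value of *Nrg2* and *Erbb4*. Their adjusted 0.0714 is the lowest that 2 such ratios of 5 can have.

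**Figure D5:**
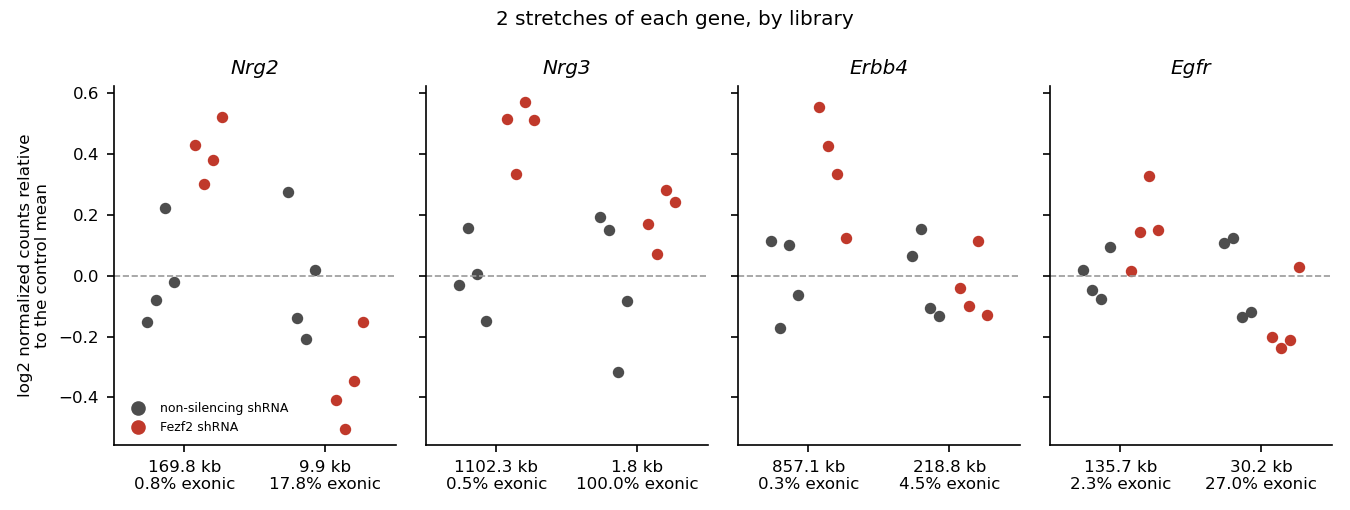
Log2 normalized counts relative to the control mean (vertical axis) in the less exonic stretch (left in each panel) and the more exonic stretch (right) of *Nrg2*, *Nrg3*, *Erbb4* and *Egfr*, in *non-silencing shRNA* (grey) and *Fezf2 shRNA* (red) libraries, with the length and exonic share of the stretch under each. In *Nrg2* the *Fezf2 shRNA* libraries lie above the controls in the stretch of 0.809% exonic bases and mostly below them in that of 17.8%.

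The rest of the ErbB pathway was read from lists of 83 genes: other ligands of the EGF family, the proteases that shed or cleave neuregulins, the proteins that dock, scaffold or turn over ErbB receptors, and the intracellular signaling genes. Of these, 67 were tested, 2 rose past the threshold and 0 fell, near the 1.96% and 0.131% of all genes, and the median log2 fold change was -0.02. The 7 other EGF family ligands (*Egf*, *Tgfa*, *Hbegf*, *Btc*, *Areg*, *Ereg* and *Epgn*) all lay under the filter, with control means of 1.01 to 437 normalized counts.

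Of the 8 tested genes for shedding and cleavage, 0 passed the threshold with edgeR or DESeq2, 0 were higher and 1 lower at an unadjusted p under 0.05 (11.8% and 7.73% of all genes), and the median log2 fold change was -0.08. *Aph1a*, a subunit of gamma-secretase, had 779 ± 68.1 normalized counts in the controls and 653 ± 34.5 with *Fezf2 shRNA* (SD, n = 4 each), with overlapping groups and a log2 fold change of -0.26 (adjusted p = 0.157 from edgeR). The ADAM proteases *Adam10* (0.13, adjusted p = 0.349), *Adam17* (-0.20, adjusted p = 0.265) and *Adam19* (0.23, adjusted p = 0.537) had log2 fold changes of either sign and did not pass either.

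Of the 11 tested genes for docking, scaffold and turnover, *Cblb* and *Dlg2* rose, beside 1.96% of all genes, and the median was -0.05. DESeq2 called 3 upward and 0 downward, beside 6.61% and 0.944% of all genes. The third was *Cbl* (adjusted p = 0.0331), with a log2 fold change of 0.21 and an adjusted p of 0.104 from edgeR. *Cblb*, a ubiquitin ligase that marks receptor tyrosine kinases for breakdown, had 2026, 1835, 1978 and 1838 normalized counts in the controls and 2505, 2218, 2441 and 2391 with *Fezf2 shRNA*, with no overlap (log2 fold change 0.32, SE 0.0651, adjusted p = 0.0360 from edgeR). *Dlg2*, a synaptic scaffold protein (PSD-93) of the family that binds ErbB4, had 58973, 64559.5, 59199 and 50591 normalized counts in the controls and 83457, 70239, 80352 and 77836 with *Fezf2 shRNA* (log2 fold change 0.42, SE 0.0903, adjusted p = 0.0421 from edgeR). Of the 8 fits that leave out a library, the call of *Cblb* was kept only without *Fezf2 shRNA* replicate 2 (adjusted p of 0.0503 to 0.107 from edgeR in the others). That of *Dlg2* was kept only without control replicate 2 or *Fezf2 shRNA* replicate 2 (0.0745 to 0.123 in the others). Their intervals are 177 kb and 1356 kb long, and with the gene span offset the log2 fold changes were 0.14 and 0.02 and neither passed (adjusted p of 0.420 and 0.942 from edgeR).

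Of the 48 tested genes for intracellular signaling, 0 passed with edgeR, 3 were higher and 4 lower at an unadjusted p under 0.05 (11.8% and 7.73% of all genes), and DESeq2 called 3 upward and 1 downward (6.61% and 0.944% of all genes). The median log2 fold change was 0.00 to 2 decimals. *Gab2*, an adaptor of receptor tyrosine kinases, had a log2 fold change of 0.25 (SE 0.0630, adjusted p = 0.0702 from edgeR) and *Prkca*, a protein kinase C, one of 0.28 (SE 0.0772, adjusted p = 0.0921). The study's own DESeq2 analysis has *Prkca* and *Fyn*, another gene of this list, among its changed genes. *Shc4* (-0.35, SE 0.106, adjusted p = 0.109) and *Shc2* (-0.20, SE 0.0777, adjusted p = 0.195), adaptors that bind activated receptors, were the lowest p among genes with negative values.

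The genes whose log2 CPM followed a member most closely over the 8 libraries were named as a description, from 9958 other genes. The libraries share their group and depth, so that genes that differ between the groups correlate. *Nrg3* was most like *Lrrc7* (Pearson's r = 0.993), *2210408F21Rik* (0.993) and *Clec16a* (0.992), with log2 fold changes of 0.36, 0.43 and 0.35. *Nrg1* was most like *Ubn2* (0.992), *Cacnb4* (0.992) and *Trio* (0.988), and *Nrg2* most like *Arl13b* (0.979), *Pdss2* (0.973) and *Nsmce2* (0.972). *Erbb4* was most like *Sh3pxd2b* (0.952), *Rbm27* (0.939) and *Rbms3* (0.938), and *Egfr* most like *Zbtb43* (0.955), *Tgfbrap1* (0.917) and *Ppp1r16b* (0.916). No member was among the 3 genes most like another member.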

How the data were processed

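The counts analysed were deposited by the authors as raw counts per Ensembl transcript: reads of total RNA libraries were trimmed with fastq-mcf, aligned to mm10 with TopHat2 2.1.1 and counted with BEDTools 2.26.0 multiCov, without normalization. The authors' DESeq2 1.10.1 results per gene, a second table, hold their own comparison and were not used. Of 94647 transcripts, 91320 were found in GENCODE release M21 (GRCm38), and the other 3327 held 1.82% of the counts. Genes were tested with edgeR 4.0.16 (TMM, quasi-likelihood test, Benjamini-Hochberg over all genes) in R 4.3.3, without covariates, with no sample dropped. SE are those of the fit. Alternatives were DESeq2 1.42.0, other normalizations and filters, a replicate block, a loess offset (span 0.3) for interval length, the widest transcript and each library left out. Stretches of genes needed 500 bases and a mean of 100 reads and, like the ratios within genes, were added after the data were seen. Exact permutation tests were two-sided, over 70 arrangements. Named genes are the members, *Fezf2*, called pathway genes (or the 2 of smallest p in each direction), genes overlapping a member with at least 1% of its reads and the 3 most similar genes. The members and lists were chosen with earlier results of these data known, and the study analysed the same libraries, so no list is independent of them. The fits were tested on simulated data. Counts are large for the tested members, so the spread between libraries limits precision (biological coefficient of variation 11.7%). Some genes are not reported here and stay out of the list counts and marker sums.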

Additional observations from a re-analysis of the deposited data

Results flagged for a closer look

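Dixon's ratio (the gap of the highest or lowest library to its neighbour over the range of the group, set against its 95% critical value) was examined in 60 groups of members, markers and stretches, and 2 passed it, where chance flags about 1 in 20 groups. The log2 ratio of the downstream to the upstream stretch of *Nrg3* was -0.21 in control replicate 1 and -0.38 to -0.36 in the other controls (ratio 0.893). The 3′ stretch of *Egfr* had 729 normalized counts in *Fezf2 shRNA* replicate 4 and 606 to 622 in the other *Fezf2 shRNA* libraries (ratio 0.873).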

How the results depend on the processing

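The number of members past the threshold (2) was 3 with DESeq2, 1 with library totals, a filter of more than 1 CPM, no filter beyond 1 count or the widest transcript, 0 with the replicate block, the gene span offset or the 2 together, and 0 to 2 when a library was left out. In the fits with 0 called, 2 to 4 members had an unadjusted p under 0.05, beside 1079 to 2077 of the 9825 to 9959 genes tested in them. The log2 fold change of *Nrg2* was 0.38 with library totals, 0.41 with more than 1 CPM, 0.42 with no filter, 0.42 with the replicate block, 0.25 with the gene span offset and with block and offset together, and 0.34 with the widest interval, none past the threshold, and 0.36 to 0.50 with a library left out. *Nrg3* had 0.48 with the replicate block (adjusted p = 0.0609), 0.10 with the offset and with block and offset together, and 0.44 to 0.54 with a library left out. *Erbb4* was -0.16 with the offset and with the 2 together, and *Egfr* was -0.019 with library totals, -0.15 with the offset and with the 2 together, and -0.021 to 0.040 with a library left out. *Nrg1* (0.39, adjusted p = 0.00850) and *Fezf2* (-0.28) passed with DESeq2, *Fezf2* was -0.18 with the offset and with the 2 together, and *Nrg1* was 0.34 to 0.47 with a library left out. *Nrg4* was 0.08 without a filter and -0.11 with its widest interval, and *Erbb2* was -0.20 to 0.0057 with a library left out.

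All genes past the threshold were 208, and 752 with DESeq2, 144 with library totals and 222 of 10134 with the widest transcript. They were 84 of 16481 with more than 1 CPM and 103 of 29623 with no filter. With the replicate block they were 90, with the gene span offset 2, with the 2 together 2, and with a library left out 0 to 368. The 0 was without control replicate 1, where 1568 genes had an unadjusted p under 0.05 with edgeR, and the 368 without control replicate 2. The other pathway genes (2) were 7 with DESeq2, 1 with library totals, 0 with more than 1 CPM, no filter, the block, the offset or the 2 together, and 0 to 2 with a library left out. The intervals of the members (8) were 5 with library totals and 0 to 8 with a library left out, and the stretches of the members (1, of *Nrg3*) 0 to 1. Calls over all intervals or all stretches were not counted in these alternative fits. The cause of the changes in these numbers was not tested. The replicate numbers share no animal or batch in the labels. Same-numbered libraries correlated by 0.31, 0.09, -0.13 and 0.17, and libraries of different numbers by -0.23 to 0.27. So few correlations cannot decide whether the numbers pair the libraries. The differences of the 5 ratios within genes kept their sign without each library, except that of the downstream to the upstream stretch of *Nrg3* (-0.04 to 0.04).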
